A study of Mus musculus with 22 samples.

Results

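Of the 55573 genes in the count table, 10 were examined here, chosen by symbol as genes of glycolysis and of the response to low oxygen whose products are used widely outside hepatocytes. They are Slc2a1, Hk1, Hk2, Pfkp, Pgk1, Pkm and Ldha of glucose entry and glycolysis, and Hif1a, Vegfa and Bnip3 of the hypoxia response, and all 10 were among the 14062 genes that passed the low-count filter (10 reads per library on average) and were tested. Liver mRNA was sequenced from 22 C57BL/6 mice in 4 groups: Cre mice on chow (n = 6), liver-Flcn KO mice on chow (n = 5), Cre mice on a methionine/choline deficient (MCD) diet (n = 5) and liver-Flcn KO mice on MCD (n = 6). The Cre mice were Flcn WT/WT; Albumin-Cre+/- and the KO mice Flcn f/f; Albumin-Cre+/-, so every mouse carried the Cre transgene. Diets were given from 6 weeks of age for 6 weeks, and the livers came from mice of about 3 months. The Albumin promoter drives Cre mainly in hepatocytes, and every value is that of whole liver tissue. Each library held between 13751347 and 21144388 reads counted on genes, and p-values measure the spread between these mice.

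Glycolysis turns glucose into pyruvate and lactate, and most of its steps can be run by more than one enzyme, each encoded by its own gene. Hepatocytes mainly use a liver-type set, which includes GLUT2 (Slc2a2), liver phosphofructokinase (Pfkl) and liver pyruvate kinase (Pklr), while GLUT1, hexokinases 1 and 2, platelet-type phosphofructokinase and pyruvate kinase M are the forms of most other cells. HIF is a transcription factor of an oxygen-sensitive alpha subunit and a stable partner, and it raises many glycolytic genes when oxygen is low. Folliculin, the product of Flcn, has been linked to HIF activity and glycolysis in other tissues, which is the question these genes address here.

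The promoters of the 10 genes were read first, because HIF binds a short core, ACGTG or GCGTG, near the starts of many targets. RefSeq (GRCm38.p6) gave 14 windows for the 10 genes, each with 250 bases before and 50 after a gene start. Both strands were searched for ACGTG and, as another motif, for GCGTG. The E-box CACGTG was counted too. It holds the first core on each strand and so adds 2 overlapping matches to that core. Of the 14 windows, 11 held ACGTG or GCGTG, which 43.8% of all 32851 windows of this length also held. All 10 genes had such a match in at least 1 of their windows, 9 windows held ACGTG (19.6% of all windows), 7 held GCGTG (32.4%) and 3 held CACGTG (7.2%). These shares are per window. Some genes had more than 1 window, and no share per gene is given to set beside the 10. The windows were not matched for base composition, and a match describes the letters and not a bound site. The 4 stretches shown lie before the gene start. That of Pfkp is given because the gene differed between the genotypes on both diets, and those of Ldha, Pgk1 and Bnip3 because they are textbook HIF targets and differed from each other across the diets. They stand on the strand of the gene, 5′ to 3′, with both cores, or their reverse complements, in capitals: Pfkp at chr13:6648778-6649021 (minus strand), Ldha at chr7:46845554-46845803 (plus strand), Pgk1 at chrX:106186850-106187099 (plus strand) and Bnip3 at chr7:138909520-138909756 (minus strand).
Pfkp: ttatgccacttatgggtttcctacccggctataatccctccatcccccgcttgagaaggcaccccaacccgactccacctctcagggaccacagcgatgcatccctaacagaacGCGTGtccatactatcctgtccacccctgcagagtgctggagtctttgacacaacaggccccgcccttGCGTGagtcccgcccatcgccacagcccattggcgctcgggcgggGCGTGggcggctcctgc
Ldha: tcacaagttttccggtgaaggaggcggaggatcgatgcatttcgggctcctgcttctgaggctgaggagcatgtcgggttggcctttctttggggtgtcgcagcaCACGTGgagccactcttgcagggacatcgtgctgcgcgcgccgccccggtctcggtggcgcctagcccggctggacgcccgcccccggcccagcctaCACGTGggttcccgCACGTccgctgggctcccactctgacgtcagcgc
Pgk1: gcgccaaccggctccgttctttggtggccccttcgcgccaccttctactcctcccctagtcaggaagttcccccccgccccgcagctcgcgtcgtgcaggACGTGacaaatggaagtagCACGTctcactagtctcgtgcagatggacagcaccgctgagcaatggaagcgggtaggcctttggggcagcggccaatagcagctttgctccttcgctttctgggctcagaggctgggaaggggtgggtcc
Bnip3: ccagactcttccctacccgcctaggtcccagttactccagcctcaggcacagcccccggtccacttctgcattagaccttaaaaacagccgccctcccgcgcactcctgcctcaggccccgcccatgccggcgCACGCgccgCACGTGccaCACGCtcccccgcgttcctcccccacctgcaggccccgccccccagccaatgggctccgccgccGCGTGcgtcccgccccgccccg
The Pfkp stretch held 3 matches, all GCGTG, and no ACGTG. Ldha held a pair of CACGTG and 1 further ACGTG core, Pgk1 held 2 ACGTG cores with no GCGTG, and Bnip3 held 1 CACGTG with GCGTG cores on both sides of it.

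Some libraries stood apart from their groups. The liver Cre MCD 3 carried skeletal muscle RNA: the summed level of 15 skeletal muscle markers, of which Myh1 was the most abundant, was 3583 CPM (the gene's reads scaled to a common library size) there, against 171 in Cre MCD 4, 81.6 in FLCN KO MCD 3, 22.6 in Cre MCD 1 and 15.7 in FLCN KO Chow 3, and between 1.08 and 7.24 in the other 17 livers. Xist, the RNA of the inactive X chromosome, was present in 12 livers and at or below 1.17 CPM in 10, so both sexes occurred in every group. Of the 12 livers with Xist, 5 also held RNA of the Y-linked genes Ddx3y, Kdm5d, Eif2s3y and Uty, with a summed level, scaled by library totals, of 31.9 CPM in Cre MCD 1, 24.7 in FLCN KO Chow 2, 13.5 in FLCN KO MCD 3, 11.4 in FLCN KO Chow 4 and 9.43 in Cre Chow 2, against at most 2.80 in the other 7 and 123 to 209 in the livers without Xist. On chow the 5 livers without Xist were also the 5 that the study's quality table lists with a low share of uniquely mapped reads, so that sex and mapping cannot be told apart on chow. The defining hepatocyte markers were abundant in every liver, with a summed level over 10 markers between 72190 and 175100 CPM and Alb as the most abundant. Their summed level was lower on MCD, 102000 ± 14120 CPM in Cre and 84280 ± 9352 CPM in KO livers against 148000 ± 18600 and 125900 ± 18310 CPM on chow (SD, n = 5, 6, 6 and 5).

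Flcn itself (ENSMUSG00000032633) was the check of the genotype labels. On chow it ran from 26.1 to 40.2 CPM, with a median of 31.8, in the 6 Cre livers, and was 24.2, 19.96, 16.7, 19.4 and 21.8 CPM in the KO livers. Every KO liver lay below every Cre liver, as 2.93% of all tested genes did, and Flcn fell by 0.63 on the log2 scale (SE 0.173, edgeR adjusted p = 0.025). That call ended without the 5 livers with both Xist and Y-linked RNA (log2 -0.60, adjusted p = 0.21) and with a replicate block (log2 -0.57, adjusted p = 0.053). On MCD it was 31.8, 18.2, 39.9, 32.5 and 23.6 CPM in Cre livers and 17.6 to 32.6, median 26.6, in KO livers, so the groups overlapped (log2 -0.16, SE 0.17, adjusted p = 0.57). The count is taken over all exons of the gene, so it checks the labels only in part, since Cre removes 1 exon and cells in which it is not active keep the gene. In whole liver, fewer cells of a type and less RNA per cell cannot be told apart.

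Of the 10 genes, 7 passed the test on MCD in Cre mice and 6 in KO mice, a difference that was not tested, and Pfkp was higher in KO livers on either diet. In Cre mice 5 of the 10 rose on MCD (Hk2, Pkm, Pfkp, Ldha and Slc2a1) and 2 fell (Vegfa and Bnip3), beside 57.5% of all 14062 tested genes called in this comparison, and their median log2 change was 0.46 against 0.01 over all genes. In KO mice 4 rose (Pfkp, Slc2a1, Pgk1 and Hif1a) and 2 fell (Hk1 and Vegfa), beside 45.0% of all genes, with a median of 0.16 against 0.00. Between the genotypes on chow only Pfkp was called, upward, beside 8.62% of all genes called either way and 5.52% called upward. On MCD 2 were higher in KO livers (Pfkp and Hif1a) and 4 were lower (Hk2, Pkm, Ldha and Slc2a1), beside 16.6% of all genes called either way (8.06% up and 8.53% down), with a median of -0.21 against -0.01. So many genes were called on the change of diet that 7 or 6 of 10 says little about these genes as a set. The response to MCD differed between the genotypes by the interaction term in Pkm, downward, beside 8.83% of all genes (3.29% up and 5.54% down). Other fits called further members: DESeq2 and library totals alone each added Hk1 and Hk2 (beside 12.1% and 10.0% of all genes called), sex as a covariate added Hk2 (9.86%), and the livers with Xist alone added Slc2a1, Ldha and Vegfa (8.62%). Without the 5 livers with both Xist and Y-linked RNA Pkm no longer passed the interaction, beside 0.597% of all genes called. The comparisons share groups, so their values stand side by side and are not independent.

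**Figure D1:**
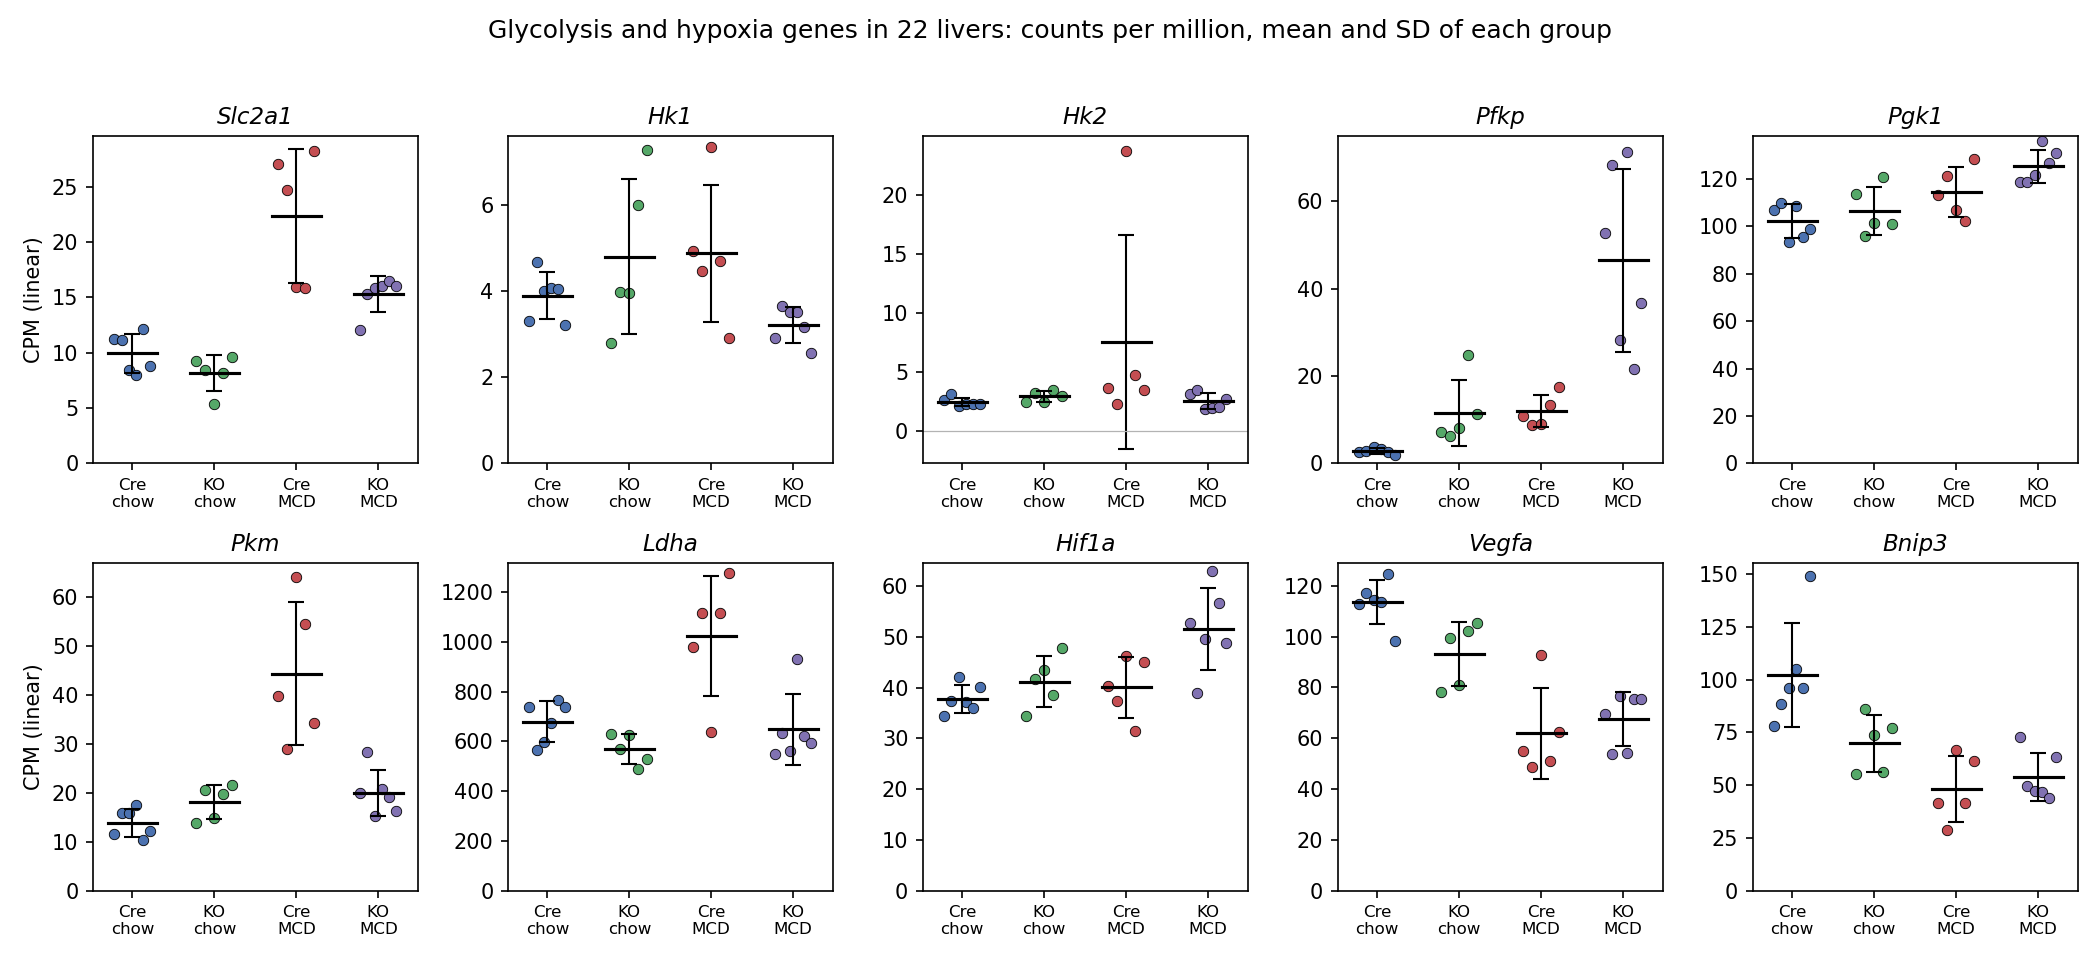
Level in CPM of the 10 genes in each of 22 livers, 1 panel a gene with a linear axis; points are livers, horizontal bars group means and whiskers SD. Pfkp is lowest in Cre chow livers (1.85 to 3.71) and highest in KO MCD livers (21.6 to 71.3), Pkm is high in Cre MCD livers only (29.0 to 64.1), and 1 Cre MCD liver at 23.7 sets the mean of Hk2.

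**Figure D2:**
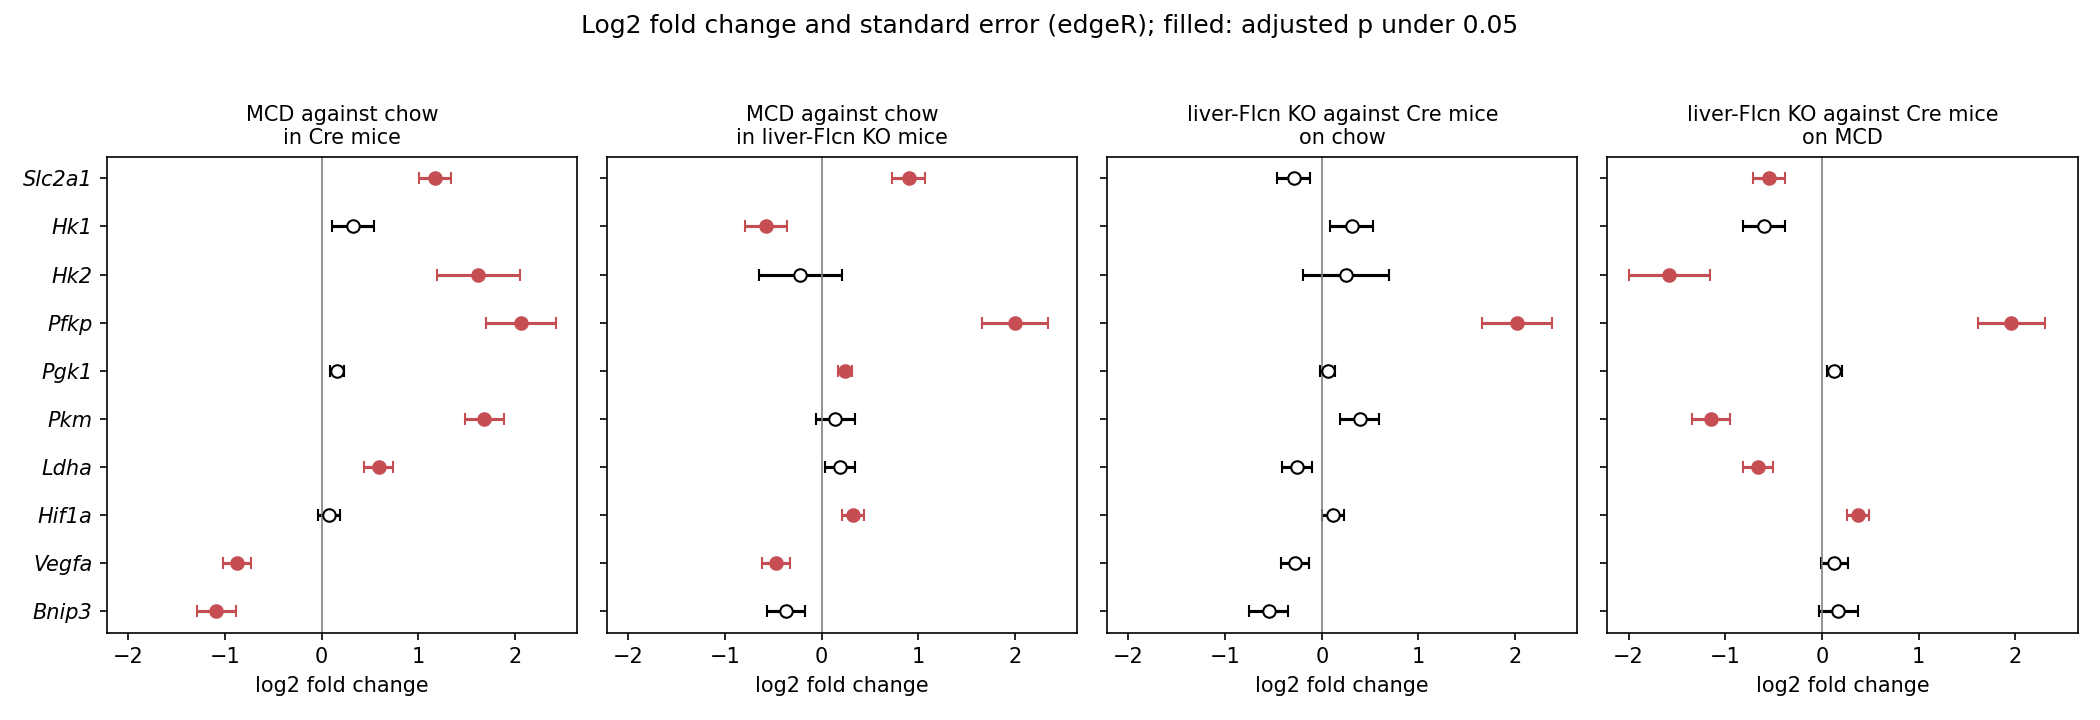
Log2 fold change (x axis) with its standard error for each gene in the 4 comparisons, from the edgeR fit; filled red points passed an adjusted p of 0.05 and open points did not. Pfkp lies near 2 in all 4 panels, from 1.96 to 2.06, while Pkm lies at 1.68 in Cre mice on MCD against chow and at -1.15 in KO against Cre mice on MCD.

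Slc2a1 (ENSMUSG00000028645) encodes GLUT1, the basal glucose transporter of most cells. It ran from 7.97 to 12.2 CPM, median 9.97, in Cre chow livers and was 9.26, 8.44, 5.37, 8.16 and 9.59 in KO chow livers. On MCD Slc2a1 was 27.1, 24.7, 15.9, 15.9 and 28.2 in Cre livers and ran from 12.0 to 16.5, median 15.9, in KO MCD livers. Each MCD group lay wholly above the chow group of the same genotype, as it did for 15.6% of all tested genes in Cre mice and 14.4% in KO mice. Slc2a1 rose on MCD by 1.17 in Cre mice (SE 0.168, edgeR adjusted p = 5.4e-06) and by 0.90 in KO mice (SE 0.172, adjusted p = 0.00022). On MCD it was lower in KO than in Cre livers by a log2 change of -0.55 (SE 0.165, adjusted p = 0.025), with overlap at the 2 lowest Cre livers. Those 2, Cre MCD 3 and Cre MCD 4, were also the Cre MCD livers without Xist and 2 of the 3 with most muscle RNA, which cannot be told apart here. In livers without Xist the rise in Cre mice was 0.58 (adjusted p = 0.073) and the genotype difference -0.14 (adjusted p = 0.79), and in those with Xist they were 1.53 (adjusted p = 1.5e-06) and -0.73 (adjusted p = 0.0027). The genotype difference was also lost when Cre MCD 1, 2 or 5 or FLCN KO MCD 1 was left out (adjusted p up to 0.081), and without the 5 livers with both Xist and Y-linked RNA (log2 -0.48, adjusted p = 0.16).

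The hexokinases, which phosphorylate glucose on entry, were low in every group. Hk1 (ENSMUSG00000037012) ran from 3.21 to 4.68 CPM, median 4.04, in Cre chow livers and was 2.80, 3.98, 3.96, 6.01 and 7.28 in KO chow livers. On MCD Hk1 was 4.94, 4.48, 7.36, 4.71 and 2.92 in Cre livers and ran from 2.58 to 3.66, median 3.34, in KO MCD livers. The groups overlapped in all 4 comparisons. Hk1 passed the test in KO mice only, where it fell on MCD by 0.58 (SE 0.218, edgeR adjusted p = 0.034), and that call was lost when any of 5 KO livers was left out (adjusted p up to 0.16) and without the 5 livers with both Xist and Y-linked RNA (log2 -0.57, adjusted p = 0.14). In Cre mice its log2 change was 0.32 (SE 0.218, adjusted p = 0.21), with -0.04 (adjusted p = 0.89) in livers with Xist and 0.79 (adjusted p = 0.044) in those without.

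Hk2 (ENSMUSG00000000628), the insulin-responsive hexokinase of muscle and fat, had a Cre MCD mean set by 1 liver. It ran from 2.10 to 3.10 CPM, median 2.32, in Cre chow livers and was 2.49, 3.21, 2.49, 3.47 and 2.96 in KO chow livers. On MCD Hk2 was 3.62, 2.28, 23.7, 4.75 and 3.48 in Cre livers and ran from 1.84 to 3.44, median 2.36, in KO MCD livers. The value of 23.7 was that of Cre MCD 3, the liver with the most skeletal muscle RNA, and the next, 4.75, was that of Cre MCD 4. With all livers Hk2 rose on MCD in Cre mice (log2 1.62, SE 0.427, edgeR adjusted p = 0.0027) and was lower in KO than in Cre livers on MCD (log2 -1.58, SE 0.419, adjusted p = 0.012). Without the 3 livers with most muscle RNA these were 0.35 (adjusted p = 0.16) and -0.24 (adjusted p = 0.54), and without Cre MCD 3 alone 0.52 (adjusted p = 0.036) and -0.49 (adjusted p = 0.11). All 15 muscle markers were higher in Cre MCD than in Cre chow livers and lower in KO MCD than in Cre MCD livers by the same fit. Of all tested genes 29.3% rose on MCD in Cre mice and 8.53% were lower in KO livers on MCD. The marker sums were 3583 CPM in Cre MCD 3 and 171 in Cre MCD 4, but 3.06 in Cre MCD 2 and 1.59 in Cre MCD 5. The latter lie within the range of chow livers, so the marker count rests on few livers.

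**Figure D3:**
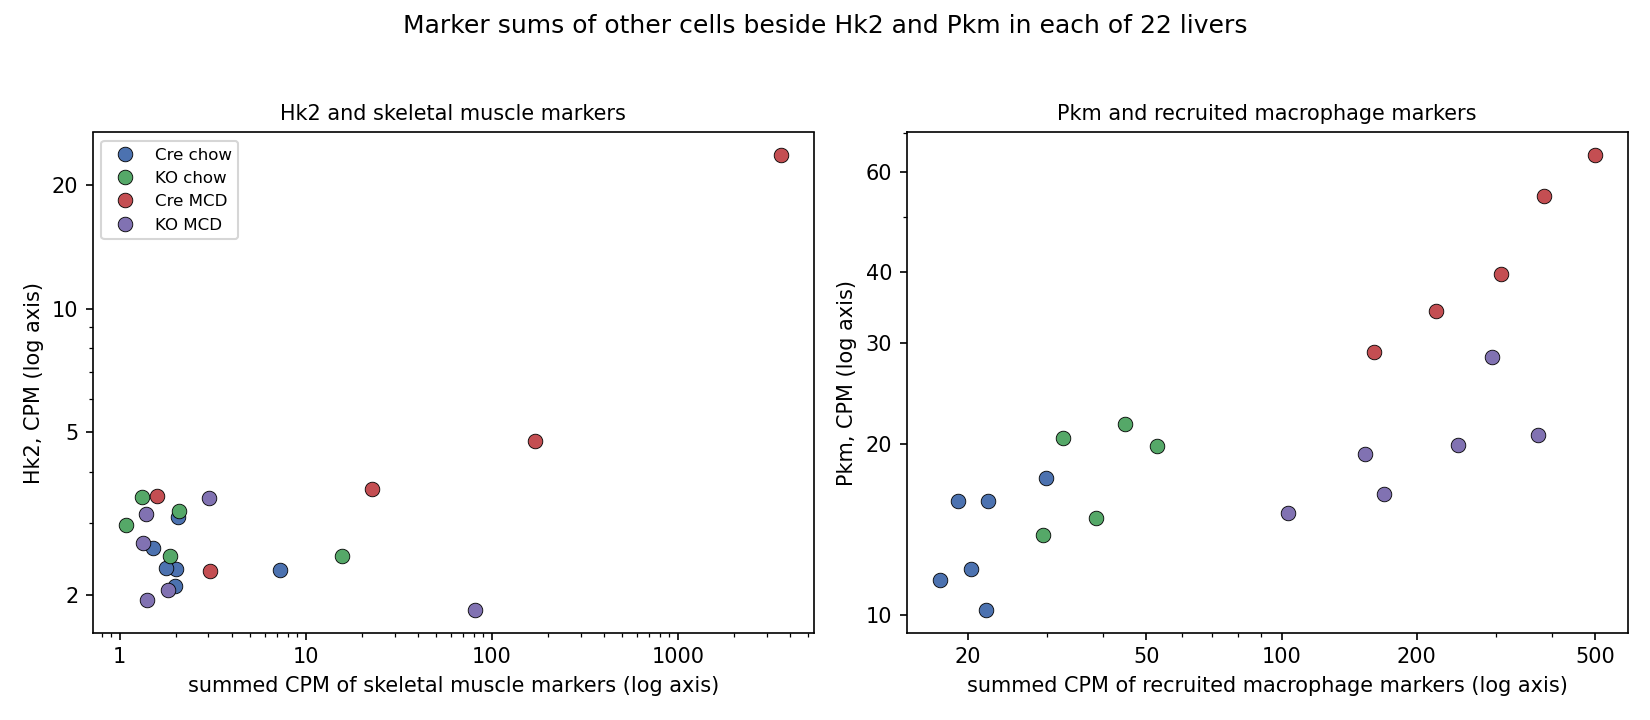
Left, Hk2 against the summed level of 15 skeletal muscle markers; right, Pkm against the summed level of 8 recruited macrophage markers; all in CPM on log axes, 1 point a liver, coloured by group. Hk2 stands at 23.7 in the liver whose muscle sum is 3583, and Pkm is 29.0 to 64.1 in the 5 Cre MCD livers, whose macrophage sums (160 to 498) overlap those of KO MCD livers (104 to 372). Without Gpnmb the sums are 112 to 237 in Cre MCD and 48.4 to 128 in KO MCD livers, which overlap less.

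Pfkp (ENSMUSG00000021196), on chromosome 13 at 6579768 to 6648777 on the minus strand, encodes the platelet type of phosphofructokinase, the main control step of glycolysis. It ran from 1.85 to 3.71 CPM, median 2.74, in Cre chow livers and was 7.24, 6.24, 8.19, 24.8 and 11.3 in KO chow livers. On MCD Pfkp was 10.95, 8.79, 9.09, 13.3 and 17.5 in Cre livers and ran from 21.6 to 71.3, median 44.7, in KO MCD livers. Cre chow livers were the lowest and KO MCD livers the highest with no overlap with Cre MCD, and KO chow and Cre MCD livers covered a like range. On chow Pfkp was higher in KO than in Cre livers, with every KO liver above every Cre liver (log2 2.02, 4.06-fold, SE 0.365, edgeR adjusted p = 0.00092). On MCD it was higher in KO livers too, again without overlap (log2 1.96, 3.90-fold, SE 0.343, adjusted p = 0.00052). Such complete separation upward was seen in 4.01% of all tested genes on chow and in 5.08% on MCD, and that between the diets in Cre mice in 15.6%.

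MCD also raised Pfkp in each genotype, by 2.06 in Cre mice (SE 0.363, edgeR adjusted p = 5.8e-05) and by 2.00 in KO mice (SE 0.345, adjusted p = 7.6e-05). In KO mice FLCN KO Chow 4 overlapped the MCD group. The interaction was -0.06 with an adjusted p of 0.96 and a standard error of 0.475, too wide to say that the diet responses were alike. These 4 calls held in every fit run. In livers with Xist the rise on MCD was 1.89 in Cre mice (adjusted p = 0.0028) and 1.03 in KO mice (adjusted p = 0.047), and the genotype difference was 2.08 on chow (adjusted p = 0.018) and 1.22 on MCD (adjusted p = 0.049). In livers without Xist these were 2.29 (adjusted p = 6.9e-05), 3.03 (adjusted p = 1.9e-05), 1.76 (adjusted p = 0.0028) and 2.51 (adjusted p = 0.00068). The differences between livers with and without Xist were not tested, and on chow they cannot be told apart from the mapped share. Within the KO MCD group the 3 livers without Xist had 52.7 to 71.3 CPM and the 3 with Xist 21.6 to 36.7. This split was chosen after seeing the data, and no share of all genes that part in this way is given, so it says little about Pfkp. Pfkp shares 748 exon bases with Pitrm1, a mitochondrial peptidase gene on the other strand, and the sources used here do not say whether counting used strand, so reads in the shared bases cannot be assigned. Pitrm1 was higher in KO than in Cre livers too, by 0.29 on chow (SE 0.0837, adjusted p = 0.032) and 0.53 on MCD (SE 0.0837, adjusted p = 0.00019).

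Pgk1 (ENSMUSG00000062070), which encodes phosphoglycerate kinase, an enzyme of the steps of glycolysis that make ATP, changed little. It ran from 93.5 to 110 CPM, median 103, in Cre chow livers and was 114, 96.0, 102, 121 and 101 in KO chow livers. On MCD Pgk1 was 113, 121, 107, 102 and 128 in Cre livers and ran from 119 to 136, median 124, in KO MCD livers. All groups overlapped their comparison group. It rose on MCD in KO mice by 0.24 (SE 0.076, edgeR adjusted p = 0.015), a call lost without FLCN KO Chow 2 (adjusted p = 0.052), without the 5 livers with both Xist and Y-linked RNA (adjusted p = 0.05) and with no filter on low counts (adjusted p = 0.056), and in Cre mice its change was 0.16 (SE 0.0756, adjusted p = 0.072). The other 6 rows of the table named as Ldha or Pgk1 pseudogenes or copies held at most 42 reads over all libraries.

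Pkm (ENSMUSG00000032294), which encodes pyruvate kinase M, was high in Cre livers on MCD and low elsewhere. It ran from 10.2 to 17.4 CPM, median 13.95, in Cre chow livers and was 13.9, 20.4, 14.8, 19.8 and 21.6 in KO chow livers. On MCD Pkm was 39.7, 29.0, 64.1, 54.4 and 34.1 in Cre livers and ran from 15.1 to 28.4, median 19.5, in KO MCD livers. The 5 Cre MCD livers lay above every other liver, by a narrow margin over the highest KO MCD liver, and such a separation between the genotypes on MCD was seen in 3.53% of all tested genes and that between the diets in Cre mice in 15.6%. Pkm rose 3.19-fold on MCD in Cre mice (log2 1.68, SE 0.202, edgeR adjusted p = 5.1e-07), with a log2 change of 0.14 in KO mice (SE 0.201, adjusted p = 0.61), and was lower in KO than in Cre livers on MCD (log2 -1.15, SE 0.198, adjusted p = 0.00045). The difference between the genotypes in the diet response was itself past the threshold (log2 -1.54, SE 0.283, adjusted p = 0.0026). It was -1.13 (adjusted p = 0.017) without the 3 livers with most muscle RNA, where the genotype difference on MCD was -0.71 (adjusted p = 0.027). The livers left out include Cre MCD 3 and Cre MCD 4, which had the highest Pkm (64.1 and 54.4 CPM). They were also the Cre MCD livers without Xist, so muscle RNA and sex cannot be told apart there. Without the 5 livers with both Xist and Y-linked RNA the interaction was -1.44 and no longer passed (adjusted p = 0.063), while the genotype difference on MCD was -1.12 (adjusted p = 0.0075). In KO mice the change in livers with Xist was -0.29 and did not pass (adjusted p = 0.091), and in those without it was 0.66 (adjusted p = 0.027). That difference was not tested and on chow cannot be told apart from the mapped share. Gene counts do not tell the M1 and M2 splice forms of Pkm apart, and apart from Pitrm1 no gene that overlaps a member held more than 228 reads over all libraries.

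Markers of other cells moved beside Pkm, and their part in the result was not tested. The 8 recruited macrophage markers, led by Gpnmb, a glycoprotein of lipid-laden macrophages, all rose on MCD in Cre mice, 6 of 8 rose in KO mice, and 4 of 8 were lower in KO than in Cre livers on MCD, or 1 of 8 without the 3 livers with most muscle RNA. Of all tested genes 29.3% rose in Cre mice, 22.5% rose in KO mice and 8.53% were lower in KO livers on MCD. Their summed level was 17.3 to 29.9 CPM, median 21.2, in Cre chow livers, 29.5, 32.7, 38.7, 52.9 and 44.9 in KO chow livers, 308, 160, 498, 385 and 221 in Cre MCD livers and 104 to 372, median 208, in KO MCD livers. The 3 livers with most muscle RNA include Cre MCD 3 and Cre MCD 4, with the highest sums (498 and 385). The third was FLCN KO MCD 3, the lowest of its group (104). Why fewer markers passed without these livers was not tested. Gpnmb made up much of the overlap between the MCD groups, at 47.8 to 262 CPM in Cre MCD and 55.2 to 260 in KO MCD livers, and it was also higher in KO than in Cre livers on chow (log2 3.04, SE 0.705, edgeR adjusted p = 0.0082). The other 7 markers summed to 200, 112, 237, 233 and 147 CPM in Cre MCD livers and to 95.7, 128, 48.4, 112, 65.4 and 68.4 in KO MCD livers. On these 7 the groups overlapped only at the highest KO liver, FLCN KO MCD 2, with Pkm at 28.4 CPM, and the lowest Cre liver, Cre MCD 2, with Pkm at 29.0. Of 11 stellate cell and fibroblast markers, led by Dcn, 7 rose on MCD in Cre mice and 6 were lower in KO than in Cre livers on MCD, beside the same 29.3% and 8.53% of all genes. Their sums on MCD were 843 ± 158 CPM in Cre and 624 ± 53.2 in KO livers (SD, n = 5 and 6), with medians of 847 and 607. The highest, 1067, was that of Cre MCD 3, the liver with most muscle RNA, and these stellate counts are those with all livers. The tested genes whose levels over the 22 livers were most like Pkm were Vim, an intermediate filament gene of mesenchymal and myeloid cells (Pearson r = 0.954), and Myo1f, a myosin gene of myeloid cells (r = 0.952), given as a description with no test.

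Ldha (ENSMUSG00000063229), lactate dehydrogenase A, which turns pyruvate into lactate, was the most abundant of the 10. It ran from 566 to 766 CPM, median 706, in Cre chow livers and was 632, 571, 625.2, 488 and 529 in KO chow livers. On MCD Ldha was 981, 1119, 638, 1116 and 1277 in Cre livers and ran from 548 to 931, median 608, in KO MCD livers. Of the Cre MCD livers 4 lay above every other liver and 1, Cre MCD 3, lay within the chow range. Ldha rose on MCD in Cre mice (log2 0.59, SE 0.153, edgeR adjusted p = 0.0023) and was lower in KO than in Cre livers on MCD (log2 -0.66, SE 0.153, adjusted p = 0.0049). In KO mice the change was 0.19 (SE 0.154, adjusted p = 0.34), with an interaction of -0.41 (SE 0.217, adjusted p = 0.26). In livers without Xist the rise in Cre mice was 0.25 (adjusted p = 0.48) and the genotype difference -0.33 (adjusted p = 0.54), in those with Xist 0.88 (adjusted p = 8.7e-05) and -0.93 (adjusted p = 0.00059).

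Hif1a (ENSMUSG00000021109), the oxygen-sensitive subunit of HIF that is mainly controlled as a protein, was slightly higher in KO livers on MCD. It ran from 34.4 to 42.1 CPM, median 37.3, in Cre chow livers and was 34.5, 41.7, 43.5, 38.5 and 47.9 in KO chow livers. On MCD Hif1a was 40.3, 37.4, 46.2, 31.4 and 45.0 in Cre livers and ran from 38.9 to 62.9, median 51.2, in KO MCD livers. The groups overlapped throughout. It rose on MCD in KO mice by 0.32 (SE 0.113, edgeR adjusted p = 0.024) and was higher in KO than in Cre livers on MCD by 0.37 (SE 0.113, adjusted p = 0.030). Leaving out any of 5 MCD livers ended the second call (adjusted p up to 0.097), and any of 3 KO livers the first (adjusted p up to 0.071). Without the 5 livers with both Xist and Y-linked RNA neither passed (log2 0.31, adjusted p = 0.15, and log2 0.38, adjusted p = 0.12).

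Of the 2 other hypoxia genes, Vegfa fell on MCD in both genotypes and Bnip3 in Cre mice. Vegfa (ENSMUSG00000023951), a growth factor for blood vessels and a HIF target, ran from 98.4 to 125 CPM, median 114, in Cre chow livers and was 78.4, 99.3, 81.0, 102 and 105 in KO chow livers. On MCD Vegfa was 55.1, 48.6, 92.7, 50.8 and 62.4 in Cre livers and ran from 53.8 to 76.8, median 72.4, in KO MCD livers. Each MCD group lay wholly below its chow group, as it did for 16.9% of all tested genes in Cre mice and 14.8% in KO mice. Vegfa fell by 0.88 in Cre mice (SE 0.145, edgeR adjusted p = 3e-05) and by 0.47 in KO mice (SE 0.143, adjusted p = 0.011). In livers without Xist these were -0.62 (adjusted p = 0.065) and -0.45 (adjusted p = 0.20), and without the 5 livers with both Xist and Y-linked RNA the change in KO mice was -0.43 (adjusted p = 0.095). Between the genotypes its log2 change was -0.28 on chow (adjusted p = 0.24) and 0.13 on MCD (adjusted p = 0.61).

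Bnip3 (ENSMUSG00000078566), a mitophagy receptor of the outer mitochondrial membrane and a HIF target, ran from 78.0 to 149 CPM, median 96.0, in Cre chow livers and was 55.3, 86.2, 73.8, 56.0 and 77.1 in KO chow livers. On MCD Bnip3 was 41.6, 28.7, 66.6, 41.5 and 61.2 in Cre livers and ran from 43.8 to 72.9, median 48.5, in KO MCD livers. The Cre MCD livers all lay below the Cre chow livers, as they did for 16.9% of all tested genes. Bnip3 fell by 1.09 in Cre mice (SE 0.203, edgeR adjusted p = 0.00011), and its change of -0.37 in KO mice did not pass (SE 0.198, adjusted p = 0.13). On chow it was 0.683 times the Cre level in KO livers, which did not pass either (log2 -0.55, SE 0.2, adjusted p = 0.091). The interaction for Bnip3 was 0.72 (SE 0.282, adjusted p = 0.11).

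Scaling bears on the small changes. The composition factors of the normalisation differed between the diets, and with library totals alone the median of all genes moved to 0.43 on MCD in Cre mice and to 0.27 in KO mice. Of the genes called in Cre mice 50.9% were up with composition factors and 81.9% with library totals, and in KO mice 3162 of 6328 and 77.0%. Of those called between the genotypes on chow 64.0% and 92.1% were higher in KO livers, and of those in the interaction 37.3% and 12.5% were upward. On that scale Hif1a (log2 0.50) and Pgk1 (log2 0.58) in Cre mice were near the median of all genes, Ldha (log2 1.02), Slc2a1 (log2 1.59), Pkm (log2 2.09) and Pfkp (log2 2.46) stood above it, and the Hk1 and Vegfa calls in KO mice were lost.

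Read per length, the members covered a wide range of levels. In Cre chow livers Ldha stood at 205 CPM per kb of exon, Pgk1 at 45.6, Bnip3 at 45.0, Vegfa at 26.5 and Hif1a at 6.42, while Slc2a1 stood at 2.84, Pkm at 2.76, Hk1 at 0.456, Hk2 at 0.412 and Pfkp at 0.211. On this length Pgk1 and Bnip3 did not differ beyond their spread (SD 3.20 and 10.9), nor did Slc2a1 and Pkm (SD 0.505 and 0.583) or Hk1 and Hk2 (SD 0.0637 and 0.0591). With the length of the longest transcript in place of all exons, Slc2a1 and Pkm did differ, at 3.06 ± 0.543 and 5.68 ± 1.20 CPM per kb. So did Hk1 and Hk2, at 0.910 ± 0.127 and 0.446 ± 0.0640 (SD, n = 6), so these orders depend on the length used. Ldha was above Pklr, the main liver pyruvate kinase, at 118 CPM per kb. In KO MCD livers Pfkp had reached 3.47 ± 1.56 CPM per kb (SD, n = 6), beside Pkm at 3.98 ± 0.931, and Ldha was still the highest at 196 ± 43.0. With the length of the longest transcript Pfkp stood at 5.354 ± 2.405 there and Pkm, further above it, at 8.192 ± 1.914.

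**Figure D4:**
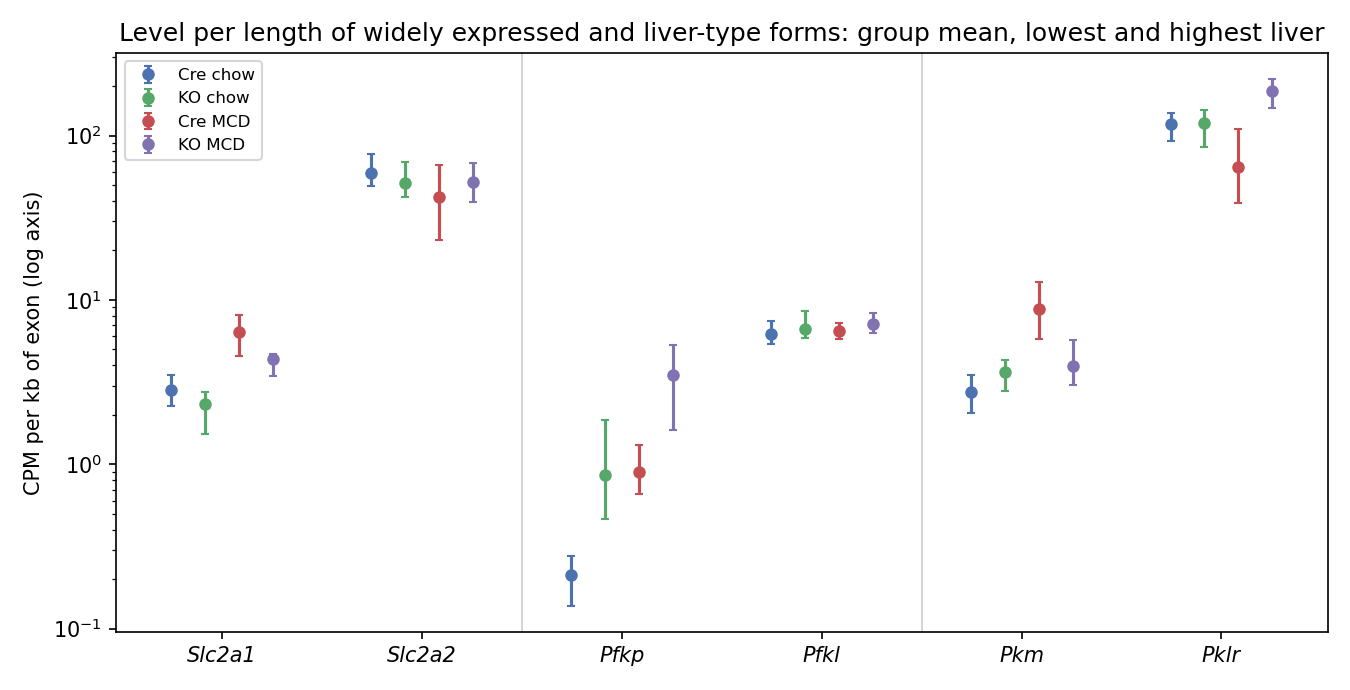
Level in CPM per kb of exon (log axis) of the widely expressed and liver-type forms of the same step; points are group means and bars run from the lowest to the highest liver. Slc2a2 and Pklr have higher means than their counterparts in every group, and Pfkp comes nearest to Pfkl in KO MCD livers (3.47 against 7.09).

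Each widely expressed form was set against the liver-type form of its step within the same liver, so that no library factor enters. The ratios were compared by exact two-sided permutation tests, with p adjusted over 16 tests, of which 12 are reported here, and 0.00216 as the smallest p the tests with 5 and 6 livers allow. The Pfkp to Pfkl ratio rose 3.84-fold on MCD in Cre mice (exact p = 0.00216, adjusted p = 0.00577) and 3.87-fold in KO mice (exact p = 0.00433, adjusted p = 0.00866). It was 3.30-fold higher in KO than in Cre livers on chow (exact p = 0.00216, adjusted p = 0.00577) and 3.32-fold on MCD (exact p = 0.00433, adjusted p = 0.00866). Pfkp made up 1.74 ± 0.512% of the summed length-scaled level of the 3 phosphofructokinase genes in Cre chow livers, 5.55 ± 2.64% in KO chow, 7.31 ± 3.37% in Cre MCD and 23.6 ± 8.52% in KO MCD livers (SD, n = 6, 5, 5 and 6). Pfkm, the muscle form, was 48.0 ± 3.59% in Cre chow, 49.4 ± 3.60% in KO chow, 40.73 ± 18.31% in Cre MCD and 26.66 ± 4.502% in KO MCD livers. In Cre MCD 3, the liver with most muscle RNA, Pfkm was 73.42% and Pfkp 2.79%. The group medians were 32.94% and 7.89%.

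The Pkm to Pklr ratio rose 5.93-fold on MCD in Cre mice (exact p = 0.00216, adjusted p = 0.00577) and was 0.153 times the Cre value in KO livers on MCD (exact p = 0.00216, adjusted p = 0.00577). In KO mice it was 0.704 times the chow value (exact p = 0.128, adjusted p = 0.157). On chow it was 1.29 times the Cre value in KO livers (exact p = 0.171, adjusted p = 0.195). Neither passed. Pklr moved opposite to Pkm in Cre mice and between the genotypes on MCD: it fell on MCD in Cre mice by 0.86 (SE 0.202, edgeR adjusted p = 0.001), rose in KO mice by 0.63 (SE 0.201, adjusted p = 0.014) and was higher in KO than in Cre livers on MCD by 1.52 (SE 0.207, adjusted p = 3.2e-05), with an interaction of 1.49 (SE 0.285, adjusted p = 0.0033). Pkm was 12.7 ± 4.00% of the summed length-scaled pyruvate kinase level in Cre MCD livers and 2.20 ± 0.840% in KO MCD livers, with 2.33 ± 0.559% in Cre chow livers. With the length of the longest transcript in place of all exons these shares were 20.97%, 3.97% and 4.22%.

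Slc2a2, which encodes GLUT2, fell in Cre mice by 0.49 (SE 0.2, edgeR adjusted p = 0.041), and Slc2a1 to Slc2a2 rose 3.20-fold there (exact p = 0.00216, adjusted p = 0.00577) and 1.85-fold in KO mice (exact p = 0.0108, adjusted p = 0.0192). Between the genotypes on MCD the ratio was 0.545 times the Cre value in KO livers, which did not pass (exact p = 0.0476, adjusted p = 0.0635), and on chow it was 0.942 times (exact p = 0.716, adjusted p = 0.716). Pfkl passed none of the 5 tests.

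**Figure D5:**
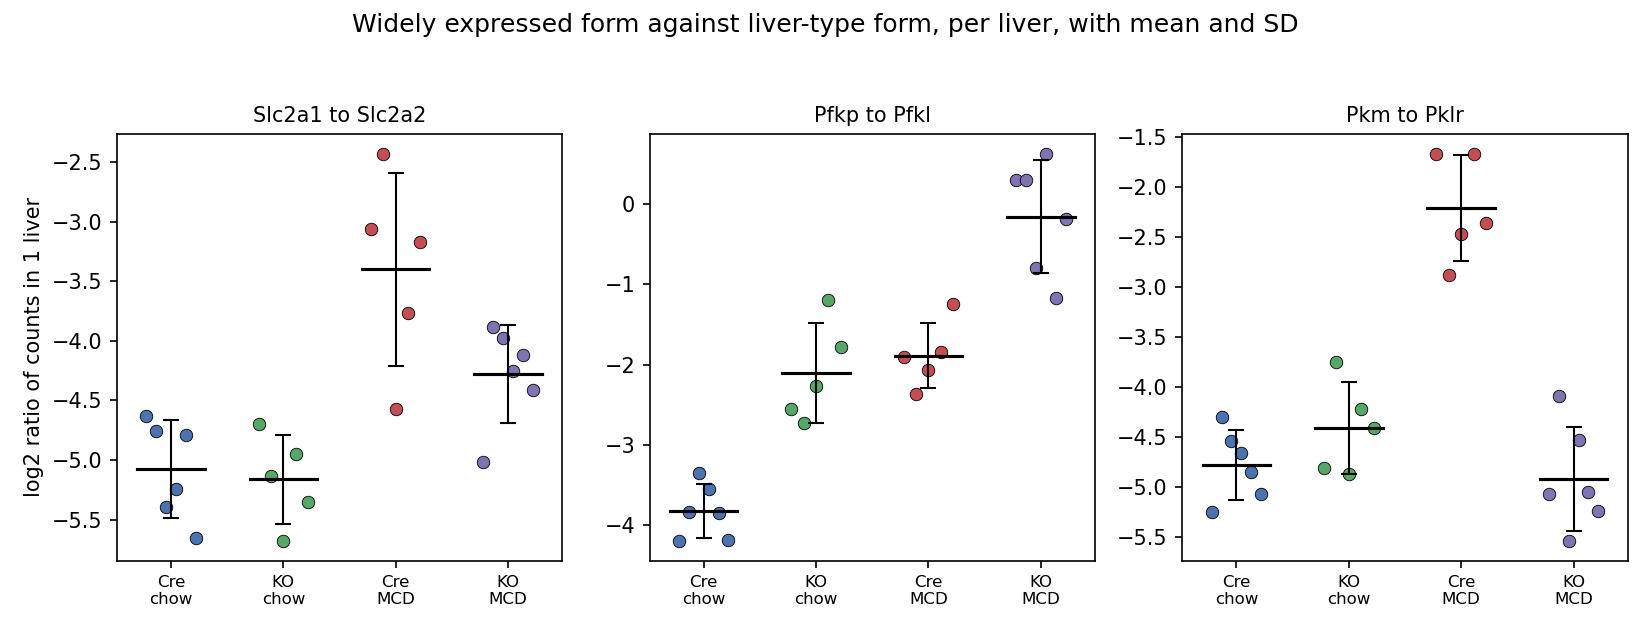
Log2 ratio of counts of the widely expressed form to the liver-type form in each liver, by group, with mean and SD; a ratio of 0 would be equal counts. Pfkp to Pfkl steps up with genotype and with diet, from a mean of -3.83 in Cre chow to -0.15 in KO MCD livers, while Pkm to Pklr is high in Cre MCD livers alone (mean -2.21, the other groups between -4.92 and -4.41).

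The rest of the glycolytic pathway was read from a list of 20 further enzyme genes, of which 19 were tested. In Cre mice 12 rose and 1 fell on MCD (median log2 0.85), and in KO mice 8 rose and 3 fell (median 0.23), beside 29.3% and 28.2% of all genes called up and down in Cre mice and 22.5% each way in KO mice. Between the genotypes 3 were higher on chow (median 0.21), beside 5.52% of all genes, 5 were higher and 3 lower on MCD (median -0.14), beside 8.06% and 8.53%, and 3 passed the interaction, all downward, beside 5.54%. Without the 3 livers with most muscle RNA 9 rose and 2 fell in Cre mice, and 3 were higher and 1 lower in KO livers on MCD. Ldhb, the lactate dehydrogenase subunit of heart, rose from 1.64 ± 0.309 CPM in Cre chow to 14.6 ± 6.75 in KO chow, 17.8 ± 11.3 in Cre MCD and 36.2 ± 7.64 in KO MCD livers (SD, n = 6, 5, 5 and 6). Its genotype difference was 3.14 on chow (SE 0.359, edgeR adjusted p = 4.1e-06) and 1.03 on MCD (SE 0.307, adjusted p = 0.025), with rises on MCD of 3.43 in Cre mice and 1.31 in KO mice and an interaction of -2.11 (adjusted p = 0.0083). Hkdc1, a hexokinase-like gene, was higher in KO livers by 3.54 on chow (SE 0.723, adjusted p = 0.0029) and 3.23 on MCD (SE 0.626, adjusted p = 0.0012) at medians of 4.26 and 4.53 CPM, with 1 KO MCD liver at 27.5.

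Others of the list moved with the diet. Ldhd, a mitochondrial D-lactate dehydrogenase, fell by 1.57 in Cre mice (SE 0.167, edgeR adjusted p = 9.7e-08) and by 1.64 in KO mice (SE 0.162, adjusted p = 7.7e-08). Aldoa, aldolase A, rose by 1.34 in Cre mice (SE 0.156, adjusted p = 3.3e-07) and by 1.11 in KO mice (SE 0.159, adjusted p = 8.9e-06). The counts hold 2 rows named Aldoa, and these values are those of ENSMUSG00000030695. Hk3, the hexokinase of myeloid cells, was lower in KO than in Cre livers on MCD (log2 -1.13, SE 0.209, adjusted p = 0.00087), Pgam1, phosphoglycerate mutase, was higher in KO livers by 0.42 on chow (SE 0.0903, adjusted p = 0.0046) and 0.43 on MCD (SE 0.0899, adjusted p = 0.0021), and Pfkfb4, of fructose bisphosphate control, had an interaction of -1.31 (SE 0.295, adjusted p = 0.0094). The muscle forms were highest in Cre MCD 3, the liver with 3583 CPM of muscle markers. Eno3, muscle enolase, passed upward in Cre mice with all livers (log2 1.56, SE 0.442, adjusted p = 0.0047) at a Cre MCD median of 6.29 and a highest value of 43.55 CPM, but its change was 0.31 without Cre MCD 3 (adjusted p = 0.12) and 0.19 without the 3 livers with most muscle RNA (adjusted p = 0.33). Pgam2, the muscle mutase, was called in Cre mice on MCD and between the genotypes on MCD, with a Cre MCD mean of 4.37 CPM and a median of 0.165. Without the 3 livers neither call of Pgam2 held (adjusted p = 0.14 and 0.63).

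Of 21 genes of glucose and lactate transport and of the pyruvate switch, 20 were tested. On MCD 5 rose and 6 fell in Cre mice (median 0.05), beside 29.3% and 28.2% of all genes, and 6 rose and 3 fell in KO mice (median 0.21), beside 22.5% each way. Between the genotypes 3 were lower on chow (median 0.08, beside 3.1% of all genes), 4 were higher and 2 lower on MCD (median 0.16, beside 8.06% and 8.53%), and 2 passed the interaction upward (beside 3.29%). Pdk4, a kinase that shuts off pyruvate dehydrogenase, rose by 1.53 in Cre mice (SE 0.452, edgeR adjusted p = 0.0065) and by 1.74 in KO mice (SE 0.464, adjusted p = 0.0041), as Pdk3 (1.66) and the opposing phosphatase Pdp1 (1.5) did in Cre mice. Pdk1, a HIF target of the same family, fell in Cre mice by 1.44 (SE 0.198, adjusted p = 3.2e-06) and in KO mice by 0.62, and was lower in KO than in Cre livers on chow (log2 -0.68, SE 0.194, adjusted p = 0.032). Slc16a7, a monocarboxylate transporter, rose in KO mice by 0.89 (SE 0.278, adjusted p = 0.012) and was higher in KO than in Cre livers on MCD by 0.91 (SE 0.278, adjusted p = 0.028). Slc2a4, the transporter of muscle and fat, passed as lower there with all livers (log2 -4.14, SE 1.2, adjusted p = 0.020), at 17.8 CPM in the highest Cre MCD liver and a median of 0.288. That liver was Cre MCD 3, which held 3583 CPM of muscle and 6.28 of adipocyte markers, and without it the difference was -0.34 (adjusted p = 0.85). Pdk2 (0.68) and Dlat (0.48) were higher in KO livers on MCD, Slc2a9 fell on MCD in Cre (log2 -1.43) and KO mice (log2 -1.06), as did Pdp2 (log2 -0.78 and -0.63), and Mpc2 (log2 -0.49) and Slc2a9 (log2 -0.38) were lower in KO livers on chow. Dlat (0.70) and Pdhb (0.57), of the pyruvate dehydrogenase complex, passed the interaction.

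The HIF machinery was read from 16 genes, of which 14 were tested. On MCD 1 rose and 6 fell in Cre mice (median -0.20) and 3 rose and 4 fell in KO mice (median -0.06), which as shares of the 14 are near the 57.5% and 45.0% of all genes called. None passed between the genotypes on chow or in the interaction (medians -0.08 and 0.17) and 1 was lower in KO livers on MCD (median 0.03), beside 8.53% of all genes. Epas1, which encodes HIF-2 alpha, fell by 0.92 in Cre mice (SE 0.16, edgeR adjusted p = 4.8e-05) and by 0.72 in KO mice (SE 0.157, adjusted p = 0.00076). Cited2, a HIF-induced competitor for its coactivators, fell by 0.95 and 1.02 and was lower in KO than in Cre livers on MCD (log2 -0.56, SE 0.155, adjusted p = 0.016). Of the prolyl hydroxylases that mark HIF alpha for destruction, Egln2 rose in both genotypes (0.40 and 0.52) and Egln3, itself a HIF target, fell in both (log2 -0.42 and -0.80). Vhl, the ligase subunit that binds the marked protein, fell by 0.28 and 0.36, Arnt, the stable partner, by 0.25 in Cre mice and Hif1an, an asparagine hydroxylase, by 0.29 in Cre mice. Cul2 (0.56) and Rbx1 (0.20), other subunits of that ligase, rose in KO mice.

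Of 42 other HIF target genes 37 were tested, and they did not move one way. In Cre mice 14 rose and 9 fell on MCD (median 0.28), in KO mice 11 rose and 8 fell (median 0.07), beside 29.3% and 28.2% of all genes called up and down in Cre mice and 22.5% each way in KO mice. Between the genotypes 1 was higher on chow (median 0.02, beside 5.52% of all genes), 2 were higher and 5 lower on MCD (median -0.14, beside 8.06% and 8.53%), and 1 passed the interaction upward and 3 downward (beside 3.29% and 5.54%). Hmox1, heme oxygenase 1, was the one on chow (0.67, SE 0.125, edgeR adjusted p = 0.0013). On MCD it was lower in KO than in Cre livers (log2 -0.44, SE 0.122, adjusted p = 0.017), with an interaction of -1.10. Igfbp1, a secreted binding protein, rose by 2.18 and 1.75, Cxcr4, a chemokine receptor of leukocytes, by 2.42 and 1.00, and Zfp395 fell by 1.65 and 1.41. Ak4, a mitochondrial adenylate kinase, rose in KO mice by 1.24 and was higher in KO than in Cre livers on MCD by 0.89 (SE 0.232, adjusted p = 0.011), with an interaction of 1.28. Mif was higher there by 0.61 and Plod1 lower (log2 -0.52).

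Beside Vegfa, 8 of 9 genes of the VEGF family and its receptors were tested. On MCD 2 fell in Cre mice (median -0.37) and 3 in KO mice (median -0.48), beside 28.2% and 22.5% of all genes called down, and 1 was higher in KO livers on chow (median 0.15, beside 5.52% of all genes), on MCD (median 0.09, beside 8.06%) and in the interaction (median -0.04, beside 3.29%). That gene was Vegfb, a growth factor tied to fatty acid uptake: it stood at 14.5 ± 2.92 CPM in Cre chow, 27.4 ± 6.23 in KO chow, 4.76 ± 2.40 in Cre MCD and 19.8 ± 3.08 in KO MCD livers (SD, n = 6, 5, 5 and 6). It fell by 1.61 on MCD in Cre mice (SE 0.231, edgeR adjusted p = 5.2e-06) and was higher in KO livers by 0.92 on chow (SE 0.215, adjusted p = 0.0087) and by 2.06 on MCD (SE 0.232, adjusted p = 3.6e-06). The endothelial receptor gene Kdr fell in both genotypes (log2 -0.56 and -0.50), and Nrp1 and Flt1 fell in KO mice (log2 -0.58 and -0.38). Of 10 endothelial markers, led by Stab2, 3 fell and 2 rose in Cre mice and 5 fell in KO mice on MCD, beside 57.5% of all genes called either way in Cre mice and 22.5% called down in KO mice. Their sums were 205 ± 39.8, 243 ± 21.6, 171 ± 23.6 and 188 ± 9.48 CPM in Cre chow, KO chow, Cre MCD and KO MCD livers. Their part in the VEGF values was not tested.

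Of 9 relatives of Bnip3 and other mitophagy receptors, 8 were tested. On MCD 2 rose and 3 fell in Cre mice (median -0.04) and 3 rose and 1 fell in KO mice (median 0.02), near the 57.5% and 45.0% of all genes called either way. Between the genotypes 1 was lower on chow (median -0.10, beside 3.1% of all genes), and on MCD 1 was higher and 1 lower (median 0.05, beside 8.06% and 8.53%), with none in the interaction (median 0.18). The closest relative, Bnip3l, fell in Cre mice by 0.37 (SE 0.1, edgeR adjusted p = 0.0037), as did Pink1 (log2 -0.51) and Fkbp8 (log2 -0.41). Fundc1, another receptor of hypoxia-driven mitophagy, rose by 0.32 in Cre mice and 0.65 in KO mice and was higher in KO than in Cre livers on MCD by 0.36 (SE 0.103, adjusted p = 0.020). In KO mice Phb2 (0.34) and Bcl2l13 (0.27) rose and Bnip2 fell (log2 -0.38), Bnip2 was also lower in KO than in Cre livers on MCD (log2 -0.26), and Fkbp8 was lower in KO livers on chow (log2 -0.35).

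The genes whose levels over the 22 livers were most like each member, by Pearson correlation of log2 CPM and given as a description, were the following. Pfkp was most like Dnajc10 (r = 0.95) and Morc4 (r = 0.943). Slc2a1 was most like AU040320 (r = 0.916) and Tmprss7 (r = 0.910), Hk1 like Mgp (r = 0.866) and Lamb2 (r = 0.843), and Hk2 like Pygm (r = 0.906) and Speg (r = 0.891), both genes of muscle. Ldha was most like Guk1 (r = 0.875) and Gcc2 (r = 0.865), and Pgk1 like Plcl2 (r = 0.862) and Spsb3 (r = 0.857). Hif1a was most like Tvp23b (r = 0.886) and Nptn (r = 0.841), Vegfa like Pls3 (r = 0.939) and Dpyd (r = 0.938), and Bnip3 like Osbpl1a (r = 0.931) and Pank1 (r = 0.927). The livers of a group share diet and genotype, and no correlation within a group was computed.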

How the data were processed

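Per the labels and the study's methods, liver mRNA reads were trimmed with Trimmomatic, aligned with STAR to GRCm38 and counted per gene with HTSeq by the authors, who deposited raw counts; tool versions and the strand setting are not given in the sources used here. The 10 genes and all lists were chosen with earlier results of these data known. Genes averaging 10 or more reads per library (14062 of 55573) were fitted together over the 4 groups with edgeR 4.0.16 (R 4.3.3, TMM factors, quasi-likelihood test), with Benjamini-Hochberg adjusted p over all of them and a threshold of 0.05, checked on simulated data. CPM used the TMM library sizes. Isozyme ratios used log2 counts with a prior count of 2 and exact permutation tests. Lengths were those of GENCODE M21 exons. Named genes were the members, Flcn, every called liver-type or HIF machinery gene, the 4 called genes with the largest change per comparison in each other pathway list (mean of at least 1 CPM), the 2 genes most like each member and each marker list's most abundant gene. Some genes this rule names are not reported here. Replicate numbers name different mice and did not pair them. Alternatives were limma-voom 3.58.1, DESeq2 1.42.0, RLE factors, other filters, only the groups compared, a replicate block, sex as a covariate, and leaving livers out. Fits by Xist, without the 5 livers with both Xist and Y-linked RNA, without the 3 livers with most muscle RNA and with library totals only were chosen after seeing the data. No 2 libraries of a group were identical (50 pairs).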

Additional observations from a re-analysis of the deposited data

Results flagged for a closer look

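Values far from the rest of their group were looked for in 44 groups of values, and 4 stood apart by Dixon's criterion, which chance meets in about 1 in 20 groups. Hk2 in Cre MCD 3 stood at 23.7 CPM, against 2.28 to 4.75 in the other livers of its group. Pfkp in FLCN KO Chow 4 stood at 24.8 CPM, against 6.24 to 11.3, and without that liver Pfkp was still higher in KO than in Cre livers on chow (log2 1.53, edgeR adjusted p = 0.0046). Ldha in FLCN KO MCD 4 stood at 931 CPM, and Slc2a1 in FLCN KO MCD 1 at 12.0 CPM, the lowest of its group. The response of Pkm to MCD differed between the genotypes by the interaction term (log2 -1.54, SE 0.283, edgeR adjusted p = 0.0026), a call lost without the 5 livers with both Xist and Y-linked RNA (log2 -1.44, adjusted p = 0.063).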

How the results depend on the processing

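Pfkp was called upward in all 4 comparisons in every alternative run, and the interaction of Pkm was called in livers with and without Xist, without the 3 livers with most muscle RNA and with library totals only. Without the 5 livers with both Xist and Y-linked RNA that call was lost (log2 -1.44, adjusted p = 0.063), and 463 genes were called on chow, 1194 on MCD and 84 in the interaction, where Pfkp was at 0.39. There 2 members were called in KO mice, with Hk1 (adjusted p = 0.14), Pgk1 (0.05), Hif1a (0.15) and Vegfa (0.095) lost, as were Slc2a1 (0.16) and Hif1a (0.12) on MCD and Flcn on chow (0.21). In livers without Xist, where groups held 2 or 3 mice, fewer genes were called: 4684 on MCD in Cre mice (8089 with all livers), 2916 in KO mice (6328), 339 between the genotypes on chow (1212), 687 on MCD (2333) and 62 in the interaction (1242), and 3 members each in KO mice and between the genotypes on MCD in place of 6. On chow 624 genes were called in livers with Xist and 494 without the 5 livers with a low mapped share, of which 75.9% were higher in KO livers against 64.0%, and with no filter on low counts 80.2%. That filter alone took the upward share of the interaction calls from 37.3% to 25.1%. Leaving out 1 liver gave 670 to 1429 genes on chow, the lowest without FLCN KO Chow 4, and 819 to 1426 in the interaction, where Cre MCD 1 gave 819 and FLCN KO Chow 4 gave 820. Without the 3 muscle RNA livers 1208 genes were called on MCD and 657 in the interaction, and without the low mapped livers 779 in the interaction. Without the 3 muscle RNA livers the named genes that no longer passed, at adjusted p of 0.051 to 0.17, were Slc16a7, Dlat, Cited2, Fundc1, Bnip2 and Mif on MCD, Mpc2 and Slc2a9 on chow, Egln3 in Cre mice, Rbx1 in KO mice and Dlat and Pdhb in the interaction. Members called in the interaction numbered 3 with DESeq2 (1701 of all genes called), 2 with sex as a covariate (1386), 4 in livers with Xist (1212), 3 with library totals (1413) and 1 to 3 on leaving out 1 liver (Cre MCD 2, 3 or 5 or FLCN KO Chow 1), against 1. Same-numbered mice did not vary together (mean correlation 0.00607 over 31 pairs, from -0.551 to 0.47), and the replicate block gave 552 interaction calls, ended the calls of Hk1 in KO mice (log2 -0.52, adjusted p = 0.080), Hk2 on MCD (log2 -1.26, adjusted p = 0.082) and Flcn on chow (log2 -0.57, adjusted p = 0.053), and set the Pfkp interaction at 0.16. Without the low mapped livers the log2 ratio changes of Pfkp to Pfkl on chow (1.68, exact permutation adjusted p = 0.11) and of Slc2a1 to Slc2a2 in Cre (1.73, 0.069) and KO mice (0.87, 0.054) no longer passed. With 3 livers in each chow group, the exact test for the first of these could not go below p = 0.1 and so could not pass. On leaving out 1 liver the Slc2a1 to Slc2a2 difference ranged from -0.20 to 0.04 on chow (0.00 without Cre Chow 1, 0.04 without FLCN KO Chow 3) and from -1.17 to -0.63 on MCD, passing without Cre MCD 3. Uncalled changes that turned sign were Hk1 in Cre mice (-0.04 with Xist) and on chow (-0.03 without), Flcn in Cre mice (0.13 without Xist, 0.30 with library totals, -0.26 to 0.01 on leaving out 1 liver) and on MCD (0.24 with Xist, 0.01 without muscle RNA livers), Hk2 in KO mice (0.17 without Xist, 0.04 with library totals), Pkm in KO mice (-0.05 without low mapped livers, -0.29 with Xist) and Vegfa on MCD (-0.29 without Xist). In the interaction they were Pfkp (0.02 with limma-voom, 0.75 without Xist, -0.22 to 0.43 on leaving out 1 liver), Slc2a1 (0.39 without Xist) and Pgk1 (-0.02 without muscle RNA livers, -0.09 with library totals). The cause of these shifts was not tested. Counts were low for Hk1 and Hk2 in most livers and for Pfkp in Cre chow livers, which limits their precision.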

Other observations

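Other cell type markers moved on MCD as follows, and their part in the values of the 10 genes was not tested. Of all tested genes 29.3% rose and 28.2% fell in Cre mice, 22.5% rose and 22.5% fell in KO mice, and 8.06% were higher in KO than in Cre livers on MCD, and list counts near these shares are no result about a list. All 8 markers of dividing cells, led by Mki67, rose in Cre mice (median log2 2.39) and none in KO mice by edgeR, with sums of 17.3 to 123 CPM, median 38.9, in Cre MCD livers and 6.54 to 68.6, median 16.1, in KO MCD livers. Of those 8, 3 passed the interaction downward, beside 5.54% of all genes. Of 8 neutrophil markers, led by S100a9, 5 were tested, and 5 rose in Cre mice and 4 in KO mice, with sums of 33.7 ± 17.5 and 19.1 ± 6.16 CPM on MCD (SD, n = 5 and 6). Of 12 Kupffer cell and macrophage markers, led by Cd5l, 4 rose and 2 fell in Cre mice, beside 57.5% of all genes called either way, and 4 fell in KO mice.

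Of 8 lymphocyte markers tested, led by Lck, 4 fell in KO mice on MCD. Of 7 bile duct markers 2 rose in Cre mice and 3 were higher in KO than in Cre livers on MCD, while the median of the 7 there was -0.50. Of 5 erythroid markers tested, led by Hbb-bs, 3 rose in Cre mice and 1 fell in KO mice. Of 10 hepatocyte markers, 1 rose and 7 fell in Cre mice and 8 fell in KO mice. None of 5 adipocyte markers, led by Cfd, passed the filter, and 1 of them, Lep, was listed at 0 in every liver.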
